A study of Mus musculus with 12 samples.

Results

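This account follows 10 genes of the neutrophil granule and of the S100 family in BMDMs (mouse macrophages that were differentiated from bone marrow cells in culture). They were 10 of the 55335 genes in the expression table, taken by symbol, and they were selected with their measured values in these libraries already known. Their levels are therefore given as a description, and the counts of these genes past the criteria of the fit are no test of them. The genes were Mpo, Elane, Prtn3 and Ctsg of the early (primary) granules, Camp, Ngp, Ltf and Lcn2 of the late granules, and the calcium-binding pair S100a8 and S100a9. RNA of 12 libraries was sequenced, 3 in each of 4 groups. Wild-type control and Nlrp3-/- control BMDMs received no stimulation, whereas wild-type LPS+ATP and Nlrp3-/- LPS+ATP BMDMs were primed with lipopolysaccharide (LPS) before ATP was added. The labels state 4 hours of LPS and 30 minutes of ATP, and the methods of the study state 12 hours and 2 hours, so the exposure behind these libraries is uncertain. The donors were C57BL/6 mice of 8 weeks, the Nlrp3 deletion was present in every cell, and marrow of all groups was grown for 7 days with macrophage colony-stimulating factor, after which the adherent cells were taken as BMDMs.

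Neutrophils build their granules in sequence as they mature. Promyelocytes make the primary granules, which carry myeloperoxidase (Mpo) and the serine proteases neutrophil elastase (Elane), proteinase 3 (Prtn3) and cathepsin G (Ctsg), and transcription of these genes is shut down when the cells mature further. Myelocytes and metamyelocytes then make the late granules, which carry the cathelicidin Camp, the cystatin-like neutrophilic granule protein Ngp, the iron-binding lactoferrin Ltf and the siderophore-binding lipocalin Lcn2. S100a8 and S100a9 form the heterodimer calprotectin, which fills the neutrophil cytosol and is also made by monocytes. Mature macrophages make little of the primary granule proteases. Lcn2 is also a known target of NF-kappaB and IkappaB-zeta in LPS-treated macrophages.

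The promoters of the 4 primary genes and of Lcn2 are shown because these genes moved in opposite directions with stimulation. Each window runs 5′ to 3′ on the strand of the gene from 250 bases before to 50 bases after the RefSeq start site on GRCm38.p6. The windows were chr11:87793534-87793833 (plus strand) for Mpo, chr10:79886062-79886361 (plus strand) for Elane, chr10:79879417-79879716 (plus strand) for Prtn3, chr14:56102525-56102824 (minus strand) for Ctsg and chr2:32387690-32387989 (minus strand) for Lcn2. Capitals mark matches on either strand to GAGGAA (reverse TTCCTC), the core of PU.1 sites, or to TTGCNNAA (reverse TTNNGCAA), a core of C/EBP sites.
Mpo: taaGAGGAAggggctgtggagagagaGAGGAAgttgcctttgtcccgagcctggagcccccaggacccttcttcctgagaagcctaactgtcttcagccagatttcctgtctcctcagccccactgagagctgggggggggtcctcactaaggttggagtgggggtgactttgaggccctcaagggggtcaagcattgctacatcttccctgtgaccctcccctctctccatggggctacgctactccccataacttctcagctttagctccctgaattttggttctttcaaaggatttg
Elane: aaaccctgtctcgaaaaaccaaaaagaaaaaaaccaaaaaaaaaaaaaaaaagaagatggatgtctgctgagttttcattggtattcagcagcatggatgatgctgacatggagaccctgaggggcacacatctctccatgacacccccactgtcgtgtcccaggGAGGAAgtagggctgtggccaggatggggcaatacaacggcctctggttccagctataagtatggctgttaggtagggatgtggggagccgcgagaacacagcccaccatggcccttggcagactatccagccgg
Prtn3: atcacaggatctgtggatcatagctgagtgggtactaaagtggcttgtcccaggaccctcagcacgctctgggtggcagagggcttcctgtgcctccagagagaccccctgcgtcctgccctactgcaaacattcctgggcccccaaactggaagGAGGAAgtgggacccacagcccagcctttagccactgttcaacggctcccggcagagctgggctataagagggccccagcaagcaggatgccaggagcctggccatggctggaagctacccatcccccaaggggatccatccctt
Ctsg: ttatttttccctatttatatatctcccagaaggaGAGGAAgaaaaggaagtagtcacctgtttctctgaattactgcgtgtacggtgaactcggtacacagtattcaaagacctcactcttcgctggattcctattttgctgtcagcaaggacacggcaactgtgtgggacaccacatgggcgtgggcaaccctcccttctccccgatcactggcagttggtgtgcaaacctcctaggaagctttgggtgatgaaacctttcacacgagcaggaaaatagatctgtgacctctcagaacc
Lcn2: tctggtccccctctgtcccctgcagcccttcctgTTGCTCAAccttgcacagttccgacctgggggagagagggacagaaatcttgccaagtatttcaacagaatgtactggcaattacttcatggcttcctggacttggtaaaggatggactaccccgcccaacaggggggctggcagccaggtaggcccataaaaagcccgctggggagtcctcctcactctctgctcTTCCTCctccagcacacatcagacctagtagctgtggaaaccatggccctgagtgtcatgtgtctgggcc

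GAGGAA was in the windows of 4 of 4 primary genes, with its first base at -247 and -224 in Mpo, -85 in Elane, -95 in Prtn3 and -216 in Ctsg. It was in 28.3% of the 32851 RefSeq promoter windows of this length. Counted by gene, 31.1% of 8886 tested genes held it in at least 1 window. In the other primary granule genes that were listed, 6 of 9 windows held it, and in the other late granule genes 11 of 16 did. TTGCNNAA was in none of the 4 primary windows and in 3 of 4 late windows, those of Ngp, Ltf and Lcn2, and in S100a9, against 10.8% of all windows. Among the other listed genes it was in 4 of 9 primary and 5 of 16 late windows, so it did not separate the classes there. In Lcn2, its match began at -216 and a TTCCTC match at -20. An NF-kappaB-type motif was searched as well and was in 0 of the 10 windows, Lcn2 included, whereas 6.41% of tested genes held it in at least 1 window. No matches of different motifs overlapped. A match is only a run of letters, and occupancy was not measured here.

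**Figure D1:**
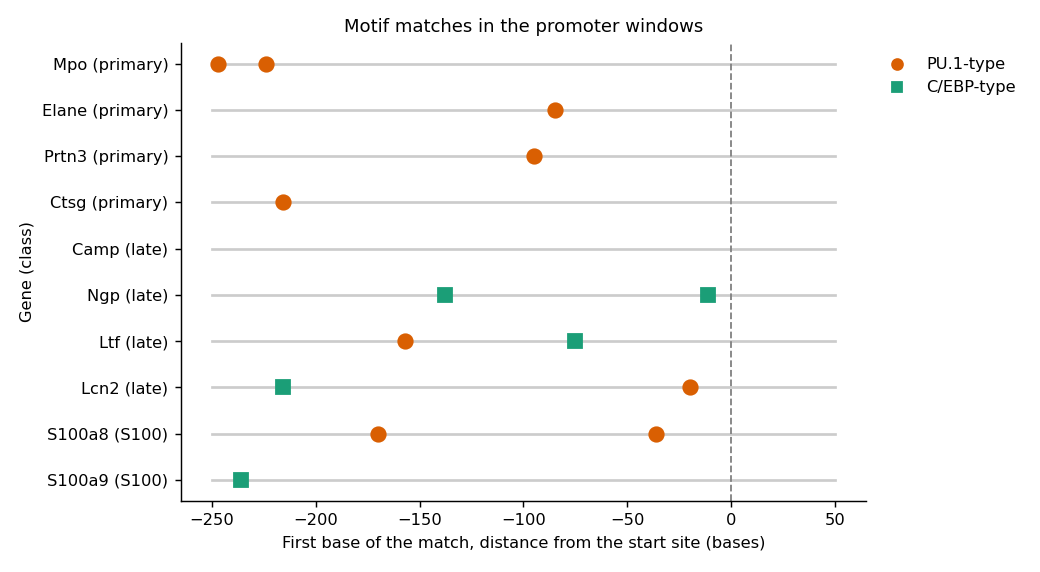
Position of motif matches in the promoter windows of the 10 genes, with the distance of the first base of the match from the RefSeq start site in bases on the horizontal axis and 1 gene per line. Circles mark GAGGAA (PU.1-type) and squares TTGCNNAA (C/EBP-type) on either strand, and all 4 primary genes carry circles and no squares.

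The table gave FPKM, the fragments per kilobase of gene and per mapped depth. From the steps between low values, and with transcript lengths of GENCODE M21, the depth was estimated at 20100000 to 24400000 fragments per library. Nlrp3 was between 9.24 and 33.6 FPKM in the 6 wild-type libraries and listed at 0 in the 6 Nlrp3-/- libraries. Xist was at most 0.0416 FPKM in wild-type and at least 32.8 FPKM in Nlrp3-/- libraries, and Y-linked genes were listed at 0 in the latter, so genotype and donor sex cannot be told apart. No source states whether replicates were separate cultures or mice, and p-values then cover only the spread between these samples, which may be technical. In bulk RNA, fewer cells of a type and less RNA per cell cannot be told apart. The macrophage label was checked with 8 markers, of which limma called 0 in either genotype comparison (7 in control and 5 with LPS+ATP had an unadjusted p under 0.05), and their summed level was 20000 to 21200 FPKM in wild-type control and 19200 to 19400 FPKM in Nlrp3-/- control BMDMs. Most of that sum was Lyz2 (means of 18500 and 17700 FPKM). Under the fold limit, the mean in Nlrp3-/- controls was 0.604 of wild-type for Cd68, 0.650 for Csf1r, 0.657 for Mrc1, 0.777 for Adgre1 and 0.865 for Cd14, against 1.05 for Mertk and 1.52 for C1qa.

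The 10 genes lie on 6 chromosomes. On GRCm38 (GENCODE M21), Prtn3 (chr10:79874476-79883174) and Elane (chr10:79886247-79888215) are 3072 bases apart on the plus strand, and S100a8 (chr3:90668978-90670035) and S100a9 (chr3:90692632-90695721) are 22596 bases apart on opposite strands. Camp (chr9:109847379-109849617), Ngp (chr9:110419747-110423012) and Ltf (chr9:111019271-111042767) are spread along chromosome 9 with gaps of 570129 and 596258 bases. Mpo (chr11:87793581-87804413), Ctsg (chr14:56099881-56102574) and Lcn2 (chr2:32384633-32388252) stand alone. Mpo overlaps Gm11505, and Prtn3 overlaps Plppr3 on the other strand. Strand use in the counting was not given in the sources used here, so reads of these pairs may be mixed. None of the 10 had a near copy at 95% identity over 20% of its transcript.

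Without stimulation, all 10 genes were higher in Nlrp3-/- than in wild-type BMDMs, and the primary granule genes differed most. Mpo, which makes hypochlorous acid in the phagosome, was 2.02, 2.14 and 2.09 FPKM in the wild-type control libraries and 58.4, 50.5 and 51.0 FPKM in the Nlrp3-/- control libraries. Its means were 2.09 ± 0.0631 (SD, n = 3) and 53.3 ± 4.43 (SD, n = 3), a ratio of 25.6. No library of one genotype reached the other. Elane, a protease that degrades bacterial proteins and matrix, was 4.32, 3.53 and 4.57 FPKM in wild-type and 65.8, 66.5 and 64.2 FPKM in Nlrp3-/- control libraries, a ratio of 15.8. Prtn3, a related protease, was 2.09, 2.61 and 2.48 FPKM against 32.1, 29.9 and 36.2 FPKM, a ratio of 13.7. Ctsg, which cleaves after aromatic and some basic residues, was 2.36, 3.14 and 2.55 FPKM against 37.1, 38.5 and 38.2 FPKM, a ratio of 14.2. For each of the 4 genes the groups were well apart, the lowest ratio over pairs of libraries being 11.4 for Prtn3.

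The late granule genes were higher in Nlrp3-/- controls by smaller ratios. Camp, whose product is cut to the antimicrobial peptide CRAMP, was 7.99, 7.89 and 8.72 FPKM in wild-type and 27.0, 24.7 and 24.9 FPKM in Nlrp3-/- control libraries, a ratio of 3.11. Ngp was 92.5, 101.1 and 95.2 FPKM in wild-type and 374.3, 371.1 and 363.8 FPKM in Nlrp3-/- controls, a ratio of 3.84. It was the most abundant granule gene of the set in control cells of both genotypes. Ltf was 12.5, 13.8 and 13.2 FPKM against 53.2, 54.4 and 52.4 FPKM, a ratio of 4.05. Lcn2, which starves bacteria of iron, was 9.73, 9.89 and 10.3 FPKM against 41.6, 45.1 and 42.9 FPKM, a ratio of 4.34. The 4 late genes thus spanned ratios of 3.11 to 4.34, and the 4 primary genes 13.7 to 25.6, with no overlap among these selected genes.

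S100a8 and S100a9 lay between the classes. S100a8 was 69.1, 67.9 and 72.3 FPKM in wild-type and 391.6, 374.9 and 371.7 FPKM in Nlrp3-/- control libraries, a ratio of 5.44. S100a9 was 145.2, 160.3 and 173.4 FPKM against 871.2, 848.7 and 865.3 FPKM, a ratio of 5.40. The pair moved in step, and S100a9 over S100a8 was 2.10 to 2.40 in wild-type and 2.22 to 2.33 in Nlrp3-/- controls, ranges that overlap. On the log2(FPKM + 1) scale of the limma fit, where a gene was called at an absolute difference of 1 or more with an adjusted p under 0.05, the median difference of the 10 genes was 2.43, and that of the 12622 tested genes was 0.09. All 10 genes were called higher, beside 6.02% of tested genes called higher and 0.689% called lower. Libraries of the genotypes did not overlap, with Nlrp3-/- above, for 38.0% of tested genes. As the genes were selected on this contrast, nothing follows from these counts.

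**Figure D2:**
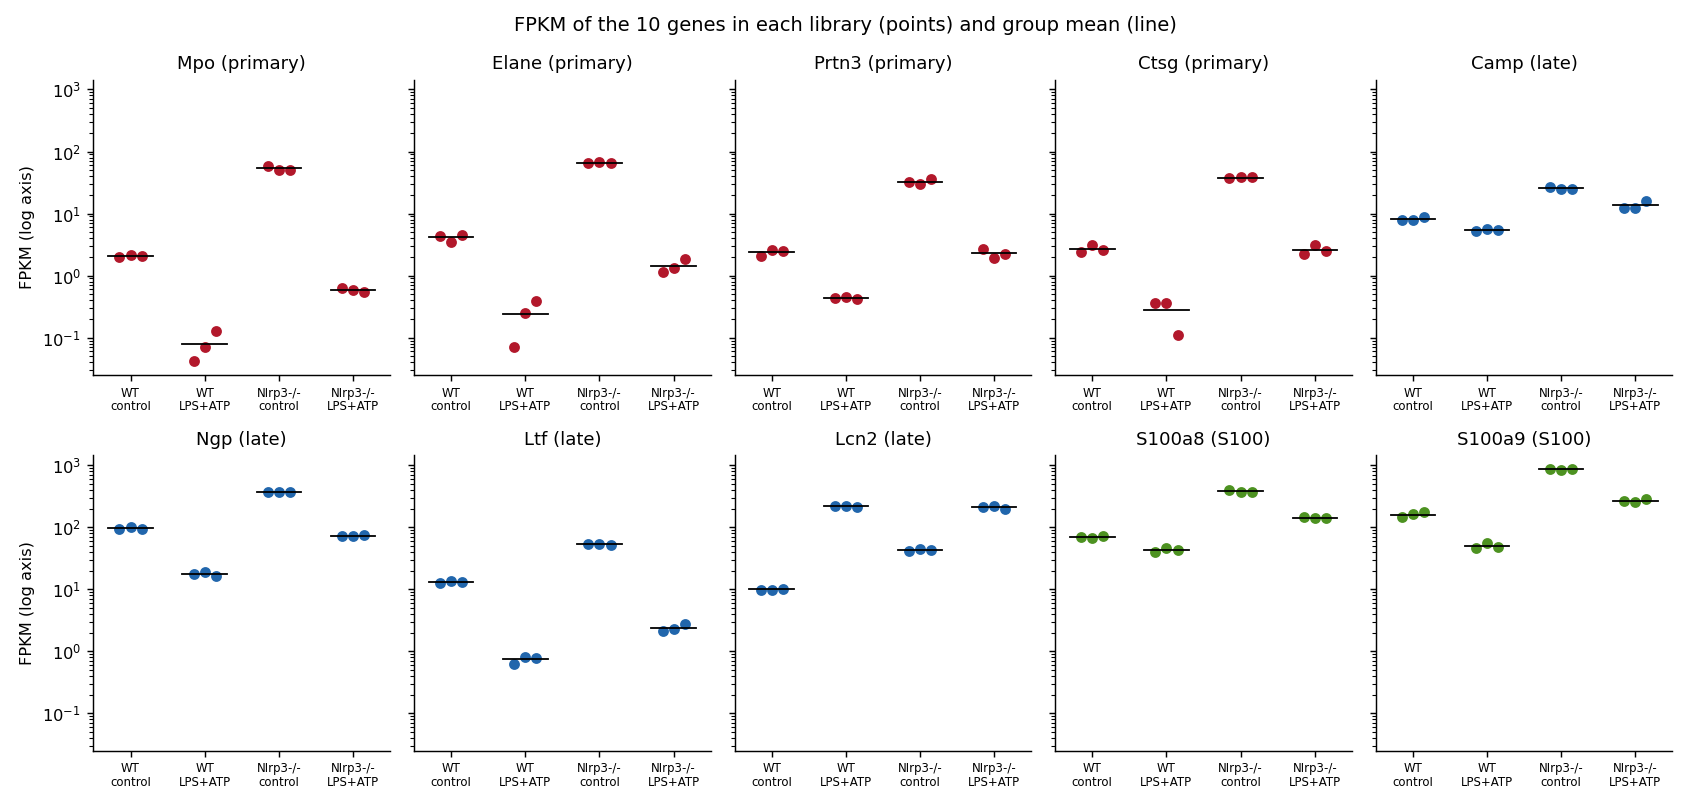
FPKM of each of the 10 genes (log axis) in the 12 libraries, with 1 point per library and a line at the mean of each group of 3. Nlrp3-/- control libraries are highest for every gene but Lcn2, which is highest with LPS+ATP in both genotypes.

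LPS+ATP separated the late genes from one another. In wild-type BMDMs, Lcn2 was 222.0, 216.5 and 214.5 FPKM with LPS+ATP, 21.9 times the control mean and higher in 3 of 3 libraries. The other 9 genes were lower, with no overlap between stimulated and control libraries, a pattern shared by 54.2% of tested genes. Mpo was 0.0414, 0.0720 and 0.127 FPKM, which stood for an estimated 2.41, 4.02 and 7.13 fragments, and its mean was 0.0385 of the control mean. Elane was 0.0720, 0.249 and 0.395 FPKM, 0.0577 of control. Prtn3 was 0.433, 0.455 and 0.424 FPKM, 0.183 of control. These low values rest on few fragments, at most 9.47 per library for the primary genes, so their ratios are imprecise. Ctsg was 0.365, 0.356 and 0.111 FPKM, 0.103 of control, and replicate 3 stood below the other two.

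Ltf fell within the range of the primary genes in wild-type cells, to 0.634, 0.806 and 0.795 FPKM, which was 0.0565 of control. Ngp was 17.6, 19.0 and 16.1 FPKM, 0.182 of control. Camp was 5.30, 5.71 and 5.45 FPKM, 0.669 of control, the smallest relative decrease of the set. S100a8 was 39.4, 45.7 and 42.6 FPKM, 0.610 of control, and S100a9 was 46.2, 54.9 and 48.5 FPKM, 0.312 of control. The partners of calprotectin thus parted, and S100a9 over S100a8 was 1.14 to 1.20, under its range in wild-type controls. In the limma fit, 1 gene (Lcn2) was called higher and 7 lower, beside 8.25% and 11.2% of tested genes, and Camp (-0.50) and S100a8 (-0.70) stayed under the fold limit.

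In Nlrp3-/- BMDMs the primary genes also lost most of their RNA with LPS+ATP. Mpo was 0.623, 0.589 and 0.544 FPKM, 0.0110 of its control mean, and Elane was 1.16, 1.35 and 1.82 FPKM, 0.0220 of control. Prtn3 was 2.66, 1.93 and 2.23 FPKM, and Ctsg was 2.25, 3.07 and 2.52 FPKM, which were 0.0696 and 0.0689 of control. Stimulated Nlrp3-/- libraries thus held Prtn3 and Ctsg at levels near those of unstimulated wild-type cells, and Mpo and Elane at lower levels than those cells. Among the late genes, Ltf was 2.09, 2.28 and 2.80 FPKM (0.0449 of control), and Ngp was 71.7, 72.4 and 74.9 FPKM (0.197 of control). Camp was 12.4, 12.3 and 16 FPKM (0.532 of control), with replicate 3 above the others. Lcn2 was 211.9, 218.5 and 194.2 FPKM, 4.82 times control, whereas S100a8 was 144.5, 142.9 and 140.4 FPKM (0.376 of control) and S100a9 was 260.5, 257.5 and 283.2 FPKM (0.310 of control). In this comparison 1 gene was called higher and 8 lower, beside 6.64% and 8.21% of tested genes, and Camp (-0.87) was not called.

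**Figure D3:**
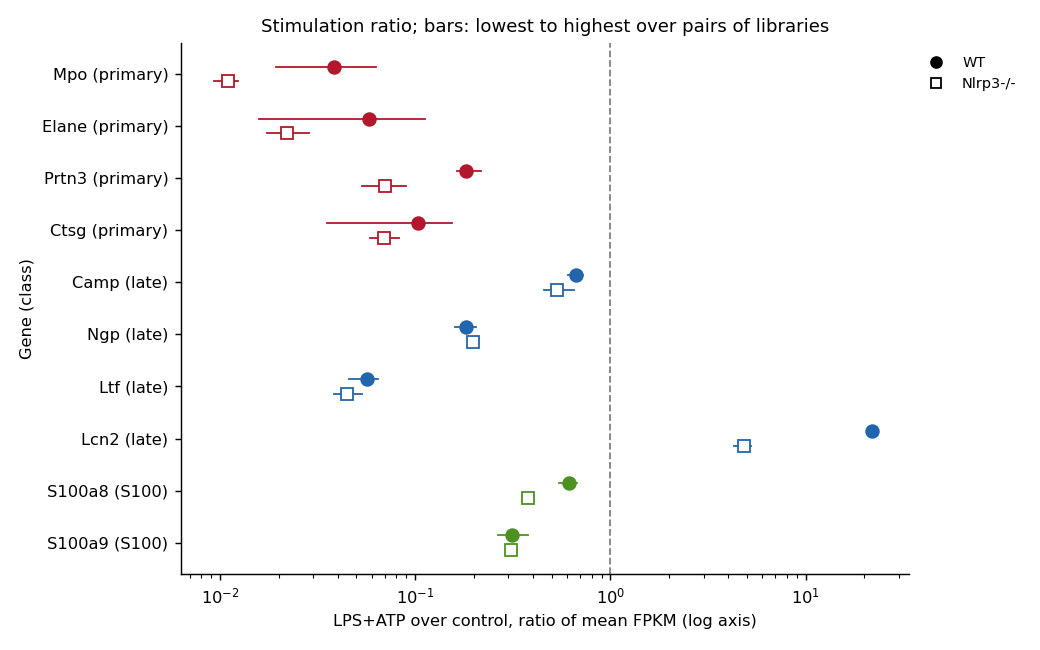
Ratio of mean FPKM with LPS+ATP over control (log axis) for each gene, in wild-type and in Nlrp3-/- BMDMs, with bars from the lowest to the highest ratio over pairs of libraries. Lcn2 lies above 1 in both genotypes and the other 9 genes below 1, with Camp nearest to 1 in Nlrp3-/- cells and Camp and S100a8 nearest in wild-type cells.

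With LPS+ATP in both genotypes, 9 of the 10 genes were still higher in Nlrp3-/- libraries without overlap (41.7% of tested genes), and Lcn2 was not. Its ratio was 0.956, and over pairs of libraries it ran from 0.875 to 1.02. The ratios of the primary genes were 7.29 for Mpo, 6.04 for Elane, 5.20 for Prtn3 and 9.43 for Ctsg. Those of the late genes were 4.15 for Ngp, 3.21 for Ltf and 2.47 for Camp, and those of S100a9 and S100a8 were 5.36 and 3.35. The S100 and primary ranges now overlapped. Because of low FPKM in stimulated wild-type cells, the ratio over pairs of libraries reached from 2.92 to 25.3 for Elane and from 6.17 to 27.7 for Ctsg. On the log2(FPKM + 1) scale, which compresses low values, 6 genes were called higher and 0 lower, beside 4.48% and 0.570% of tested genes, and Mpo (0.55), Elane (0.98), Ltf (0.96) and Lcn2 (-0.07) were not called. With a pseudocount of 0.1 in place of 1, the differences of Mpo (1.95), Elane (2.29) and Ltf (1.56) passed the criteria.

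**Figure D4:**
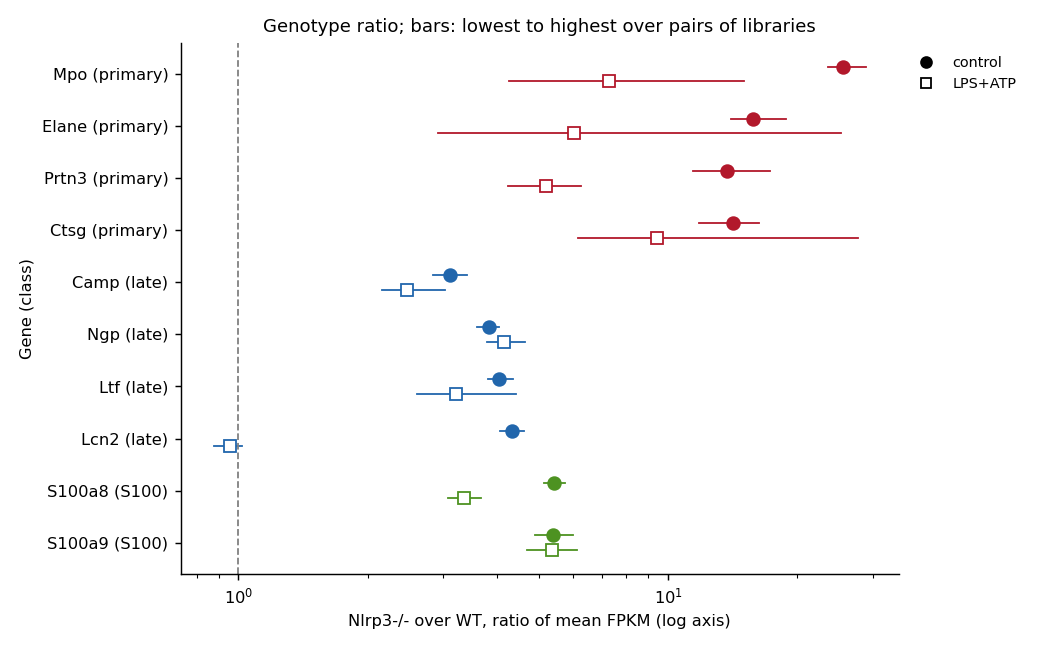
Ratio of mean FPKM, Nlrp3-/- over wild-type (log axis), for each gene in control (filled circles) and LPS+ATP (open squares) BMDMs, with bars from the lowest to the highest ratio over pairs of libraries. In control cells the 4 primary genes lie between 13.7 and 25.6, apart from the late genes at 3.11 to 4.34, and with LPS+ATP only Lcn2 spans 1.

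The interaction term is the genotype difference with LPS+ATP minus that in control. It was called negative for 5 genes and positive for 0, beside 1.43% and 0.721% of tested genes. The 5 were Mpo (-3.58), Elane (-2.72), Prtn3 (-2.13), Ctsg (-1.91) and Lcn2 (-2.08). For Ngp and S100a9 the terms were 0.07 and -0.03, and the ratio of Nlrp3-/- to wild-type was nearly the same with and without stimulation (3.84 and 4.15 for Ngp, 5.40 and 5.36 for S100a9). The primary genes and Lcn2 came to their negative terms by different courses, since the former were lower with LPS+ATP in both genotypes and Lcn2 was higher in both. The terms of the primary genes depend on the pseudocount, and that of Ctsg was -0.86 at 0.1 and was not called.

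The share of all FPKM taken by the 10 genes was 0.117% to 0.129% in wild-type control libraries and 0.642% to 0.659% in Nlrp3-/- control libraries. With LPS+ATP it was 0.114% to 0.119% and 0.251% to 0.253%. The wild-type shares overlapped, but their makeup did not. Lcn2 was 2.66% to 2.80% of the summed FPKM of the set in wild-type controls and 63.0% to 66.9% with LPS+ATP. S100a8 and S100a9 together made up 61.3% to 63.8% in wild-type controls, 64.3% to 64.7% in Nlrp3-/- controls, 56.2% to 58.9% in stimulated Nlrp3-/- libraries and 25.8% to 29.3% in stimulated wild-type libraries. The primary genes made up 3.04% to 3.10% in wild-type controls and 9.74% to 9.92% in Nlrp3-/- controls.

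By level per length, S100a9 led the set in both controls and in stimulated Nlrp3-/- cells, and Lcn2 led in stimulated wild-type cells. In Nlrp3-/- controls, the order was S100a9, S100a8, Ngp, Elane, Ltf, Mpo, Lcn2, Ctsg, Prtn3 and Camp, and only the neighbours S100a8 with Ngp and Ltf with Mpo overlapped in their libraries. Camp was last there and sixth in wild-type controls. In wild-type controls the 4 primary genes took the last places, from Elane at 4.14 FPKM to Mpo at 2.09 FPKM, and the libraries of Ctsg, Prtn3 and Mpo overlapped from one neighbour to the next. Mpo moved from the 26.0th percentile of tested genes in wild-type controls to the 94.3rd in Nlrp3-/- controls. With LPS+ATP it was at the 0.768th and the 4.02nd percentile.

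Genes beyond the 10 were read from 5 lists, of primary granule or promyelocyte, late granule, S100, receptor and regulator genes. Of these 63 genes, 53 were measured high enough to test (3 or more libraries at FPKM 1 or higher). A place on a list does not show that the product is stored in that granule. The lists were written with results of these data known. Of the tested genes, 6 (Ms4a3, Prss57, Retnlg, Itgb2l, Gfi1 and Myb) passed that filter only through Nlrp3-/- controls and so had to be higher there, and their values are a description. Without stimulation, of 11 tested primary granule or promyelocyte genes 6 were called higher in Nlrp3-/- cells, 0 lower and 5 were not called, beside the 6.02% and 0.689% of all tested genes. Without the genes that passed only through Nlrp3-/- controls, 4 of 9 were called higher. Fcnb, a ficolin of neutrophil precursors, was 2.09 to 2.39 FPKM in wild-type libraries against 15.6 to 17.1 FPKM in Nlrp3-/- libraries (log2 difference 2.44 ± 0.119 SE, limma adjusted p = 1.93e-08). Ms4a3, a marker of granulocyte-monocyte progenitors, was 0.472 to 1.09 FPKM against 10.8 to 11.2 FPKM. Plac8 (2.25) and haptoglobin, Hp (1.97), were also higher in all 3 libraries. The granule proteoglycan Srgn (0.58), the protease activator Ctsc (0.36), the protease inhibitor Cst7 (-0.04), Cd63 (-0.15) and Gusb (-0.71), which macrophages also express, were not called.

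Of 17 tested late granule genes, 10 were called higher in Nlrp3-/- controls, 0 lower and 7 were not called, beside the same 6.02% and 0.689%. Without Retnlg and Itgb2l, 9 of 15 were called higher. These 9 still include Stfa1 and Stfa2, which were at most 0.372 and 0.593 FPKM in any wild-type library. They passed the filter only through Nlrp3-/- libraries and so had to be higher there, and their values are a description. The stefins Stfa1 (4.12), Stfa3 (2.98) and Stfa2 (2.81), which are cysteine protease inhibitors, had the largest differences. Stfa1 and Stfa2 share sequence with near copies, which leaves both values uncertain. Wfdc21 was 2.11 to 3.73 FPKM in wild-type and 16.3 to 17.9 FPKM in Nlrp3-/- controls (2.30 ± 0.124 SE, limma adjusted p = 4.25e-08). The collagenase Mmp8 (0.40) and the chitinase-like Chil3 (0.82) were not called. The median difference of the 17 genes was 1.47, and that of the 11 other primary genes was 1.09. These medians did not show the order of the classes among the 10 selected genes, but they cannot decide whether it holds more widely. The primary list includes Srgn, Ctsc, Cst7, Cd63 and Gusb, which macrophages also express. Both lists include genes that passed the filter only through Nlrp3-/- libraries. Of 7 other tested S100 genes, S100a16 rose (1.62 ± 0.194 SE, limma adjusted p = 3.5e-05) and 6 were not called, among them S100a6 (-0.16) and S100a10 (-0.03).

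**Figure D5:**
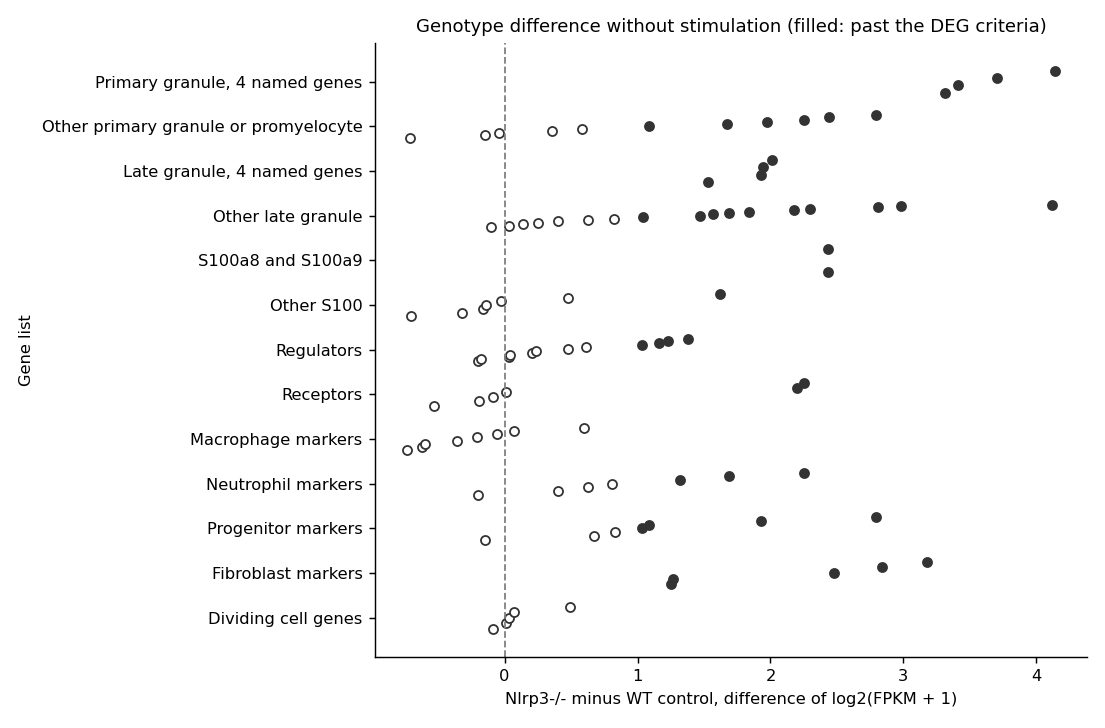
Difference of log2(FPKM + 1), Nlrp3-/- minus wild-type control, for each tested gene of the lists, with filled points past the criteria. The 4 primary genes lie at 3.31 to 4.14, and 5 of 5 fibroblast markers and 0 of 8 macrophage markers are filled.

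Among the transcription factors and cytokine genes of granulocyte development, 4 of 12 were called higher in Nlrp3-/- controls and 0 lower (6.02% and 0.689% of all tested genes), and 2 of 10 without Gfi1 and Myb. Cebpe, which drives late granule genes, was 1.40 to 2.16 FPKM in wild-type libraries against 5.48 to 5.93 FPKM in Nlrp3-/- libraries (1.23 ± 0.104 SE, limma adjusted p = 1.91e-06). Nfkbiz, which encodes IkappaB-zeta, differed by 1.16. Gfi1, a repressor needed for neutrophil differentiation, was 0.308 to 0.383 FPKM against 2.24 to 2.79 FPKM, and Myb, a progenitor factor, reached no more than 1.51 FPKM. Spi1, which encodes PU.1, differed by -0.18 and was not called. With LPS+ATP, limma called 0 of these 12 genes between genotypes, and 7 had an unadjusted p under 0.05.

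The receptor list followed another course. Fpr1 and Fpr2, which sense formyl peptides, rose in Nlrp3-/- controls (2.25 ± 0.120 and 2.20 ± 0.0620 SE). With LPS+ATP they reached 488 to 519 FPKM and 401 to 415 FPKM in wild-type libraries and 524 to 548 FPKM and 365 to 372 FPKM in Nlrp3-/- libraries. Their interaction terms were -2.16 and -2.35. With LPS+ATP neither was called between genotypes (limma called 0 of the 6 tested genes of this list, and 4 had an unadjusted p under 0.05), and the Nlrp3-/- libraries lay just above wild-type for Fpr1 and below it for Fpr2. Tlr4, a receptor of S100a8 and S100a9, ranged from 3.06 to 16.7 FPKM within wild-type controls alone, and Ager did not reach the level needed for testing.

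With LPS+ATP in both genotypes, 2 of 11 other primary, 5 of 17 other late and 1 of 7 other S100 genes were higher in Nlrp3-/- libraries (4.48% of all tested genes), and S100a4 was lower (-1.40 ± 0.0883 SE, limma adjusted p = 2.08e-07). Plac8 (1.63) and Fcnb (1.02) were the primary genes, Fcnb near the limit. Stfa1 (2.65), Stfa2 (2.22), Pglyrp1 (1.66), a peptidoglycan-binding granule protein, and Stfa3 (1.55) led the late genes. The values of Stfa1 and Stfa2 are a description here too, as neither reached FPKM 1 in a wild-type library. Stimulation itself lowered Fcnb in wild-type (-1.34) and Nlrp3-/- cells (-2.76), and raised Hp (3.04 and 1.58), Cst7 (2.91 and 2.97) and the elastase inhibitor Slpi (3.02 and 2.74). In wild-type cells, 5 of the other primary genes rose and 2 fell, and 3 of the other late genes rose and 6 fell, beside 8.25% and 11.2% of all tested genes. In Nlrp3-/- cells, 4 primary genes rose and 4 fell, and 1 late gene rose and 11 fell, beside 6.64% and 8.21%. Ms4a3, Prss57, Retnlg and Itgb2l were among those that fell. They passed the filter only through Nlrp3-/- controls and so had to be lower with LPS+ATP. Without them, 4 of 9 primary genes rose and 2 fell, and 1 of 15 late genes rose and 9 fell. Of the other S100 genes 5 fell in each genotype, including S100a4 (-2.13 and -2.83) and S100a6 (-1.91 and -1.57). Of the regulators, Csf3 (4.23 and 4.53), Nfkbiz (2.45 and 1.92) and Cebpb (2.41 and 1.63) rose in both. Cebpa fell in both (-2.31 and -1.53), but ranged from 1.1 to 16.3 FPKM within stimulated wild-type libraries. Cebpe fell in Nlrp3-/- cells (-1.85), as did Gfi1 (-1.27) and Myb (-1.1), which passed the filter only through Nlrp3-/- controls.

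Markers of other cells also differed between genotypes in controls, and their part in the result was not tested. Of all tested genes, 6.02% were called higher and 0.689% lower in Nlrp3-/- controls, and 4.48% and 0.570% with LPS+ATP. Of 8 neutrophil markers 7 were tested, 3 were higher in Nlrp3-/- controls, and their summed FPKM was 312 to 324 in wild-type and 437 to 453 in Nlrp3-/- controls. With LPS+ATP that sum was 662 to 697 and 679 to 705 FPKM, and most of it was Fpr1. Mean FPKM of Fpr1 was 5.47 and 29.4 in controls and 501 and 535 with LPS+ATP in wild-type and Nlrp3-/- cells. Csf3r and Mcemp1 also had higher means with LPS+ATP in both genotypes. Mmp8 (264 to 84.8 FPKM in wild-type and 349 to 80.8 FPKM in Nlrp3-/- cells), Cd177, Retnlg, Cxcr2 and Ly6g had lower means in both. Ly6g, which defines mouse neutrophils, was 0 to 0.0697 FPKM in wild-type and 0.311 to 0.781 FPKM in Nlrp3-/- controls. Cxcr2 was 0.242 to 0.310 and 1.17 to 1.30 FPKM. Of 8 progenitor markers 4 were called higher in Nlrp3-/- controls, but Ms4a3, Prss57 and Myb, already counted above, passed the filter only through that group, which leaves Sox4. The sum of the 8 was 13.8 to 15.1 FPKM in wild-type and 37.2 to 38.5 FPKM in Nlrp3-/- controls, with Sox4 at 2.02 to 2.55 and 10.9 to 12.4 FPKM. With LPS+ATP the progenitor sum was 7.82 to 8.41 and 10.4 to 12.1 FPKM. Of 7 eosinophil, basophil or mast cell markers 3 were higher in Nlrp3-/- controls, with a sum of 7.74 to 8.01 FPKM in wild-type and 29.0 to 30.9 FPKM in Nlrp3-/- controls, and of 2.82 to 3.34 and 7.03 to 7.27 FPKM with LPS+ATP. Of the 3, Mcpt8 was 0.819 to 1.12 FPKM in wild-type controls and would not have passed the filter on wild-type libraries alone. The 5 fibroblast markers were all higher, with a sum of 157 to 161 FPKM in wild-type and 1160 to 1180 FPKM in Nlrp3-/- controls, and of 180 to 183 and 890 to 905 FPKM with LPS+ATP. Of the 5 genes of dividing cells limma called 0 in controls, and 1 had an unadjusted p under 0.05. With LPS+ATP, Top2a (1.54) and Ccnb1 (1.29) were called higher in Nlrp3-/- cells, and all 5 had an unadjusted p under 0.05. Of 6 lymphoid or erythroid markers 2 were tested, Hbb-bs and Hba-a1. Hbb-bs passed the filter only through Nlrp3-/- controls, and Hba-a1 was at most 0.452 FPKM in any wild-type library. Both therefore had to be higher in Nlrp3-/- cells, and their calls are a description. The sum of the 6 was at most 0.967 FPKM in wild-type and 7.70 to 9.19 FPKM in Nlrp3-/- controls. With LPS+ATP it was 0.663 to 1.08 and 3.44 to 4.32 FPKM.

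Within 50 kb of the 10 genes, 26 other genes were tested, of which 3 were higher in Nlrp3-/- controls and 0 lower, beside 6.02% and 0.689% of all tested genes. The 3 lie beside Ctsg in the cluster of mast cell proteases and granzymes. Mcpt8, a basophil protease, differed by 2.02, Gzme by 3.06 and Gzmd by 1.80 on the log2 scale. Mean FPKM of Gzmd was 0.095 in wild-type controls and 0.117 in wild-type LPS+ATP libraries. Gzmd therefore passed the filter only through Nlrp3-/- libraries and had to be higher there, and its call is a description. Mcpt8 would not have passed the filter on wild-type libraries alone. Plppr3, which overlaps Prtn3, had 2.70 FPKM in Nlrp3-/- against 1.15 FPKM in wild-type controls and was not called.

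The genes whose course over the 12 libraries was most like that of each class were found among 4171 genes by Pearson's r, as a description. For the mean of the primary genes these were Ptprd (0.9974), Ebf3 (0.9972), F730016J06Rik (0.9967), Osr1 (0.9965) and Acap1 (0.9951). For the late genes they were Shc2 (0.9961), Kng1 (0.9954), Fgr (0.9932), Myh10 (0.9930) and Tead2 (0.9929). For S100a8 and S100a9 they were Cnn2 (0.9971), Dclk1 (0.9971), Col6a2 (0.9962), Mylk (0.9958) and Lurap1l (0.9951). The genes named for the primary class, and Shc2 and Tead2, had group means under 1 FPKM in every group but Nlrp3-/- controls. They met the filter mainly through the group where most of the selected genes were highest. Their likeness was therefore in part fixed beforehand. The selected genes themselves were left out of this search, so none of them could be listed. The 12 points fall into the 4 groups, and no other granule gene was among the 15 names. The late class joins Lcn2, which was higher with LPS+ATP in both genotypes, with Camp, Ngp and Ltf, which were lower. Likeness to the late class therefore need not hold for each of its members. Mean FPKM of Ptprd was 0.593 in wild-type control, 0.127 with LPS+ATP, 2.42 in Nlrp3-/- control and 0.458 in stimulated Nlrp3-/- cells.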

How the data were processed

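Expression of 12 libraries of BMDMs was analysed. The authors deposited FPKM per gene and library. Total RNA was isolated with TRIzol and libraries were made with a TruSeq kit. The submitters' processing notes name GRCm39 and DESeq2 1.24.0, and the aligner, counter and annotation are not given in the sources used here. The table held no other columns of values per library (0 unused). FPKM cannot be used in a test on counts. Genes reaching FPKM 1 in 3 or more libraries (12622 of 55335) were compared on log2(FPKM + 1) with limma 3.58.1 in R 4.3.3, using a variance trend and 1 mean per group. Calls needed a Benjamini-Hochberg adjusted p under 0.05 and an absolute log2 difference of at least 1. The fit was first tested on simulated data. The members and lists were chosen with earlier results of these data known. Besides the 10 genes, at most the 4 called genes of each list with the largest difference were named, plus genes whose absence of a call or low level bears on a member, and the 5 most alike genes per class. Positions came from GENCODE M21 (GRCm38), promoters from RefSeq (GRCm38.p6), near copies from blastn 2.17.0. All 10 genes matched both. Fragments were estimated from the steps of low FPKM and depend on M21 lengths. Alternatives were a pseudocount of 0.1, no filter, FPKM 5, no fold limit, no trend, a replicate block, fits of the compared groups, leaving out each library, and scaling to TPM, upper quartiles or median ratios. Python 3.11.15, numpy 2.4.6, pandas 2.3.3 and matplotlib 3.10.9 were used.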

Additional observations from a re-analysis of the deposited data

Results flagged for a closer look

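The genotype difference changed with stimulation, by the limma interaction term (difference with LPS+ATP minus difference in control, log2 scale), for 18 of the 63 genes tested, all with a negative term, beside 1.43% of all tested genes called negative and 0.721% positive. Of the 18, 5 were selected on such values and 3 more (Ms4a3, Prss57 and Gfi1) passed the filter on low FPKM only through Nlrp3-/- controls, so that their terms had to be negative, which leaves 10. Among the 10 granule and S100 genes they were -3.58 for Mpo, -2.72 for Elane, -2.13 for Prtn3, -1.91 for Ctsg and -2.08 for Lcn2. Among the other primary granule and promyelocyte genes they were -2.44 for Ms4a3, -1.82 for Serpinb1a, -1.46 for Hp, -1.42 for Fcnb and -1.05 for Prss57. The term of Fcnb need not mean a changed ratio, as its Nlrp3-/- to wild-type ratio was 7.44 in control and 5.95 with LPS+ATP. Its stimulated means were low, at 0.266 (wild-type) and 1.58 FPKM (Nlrp3-/-), and the log2(FPKM + 1) scale compresses such values. Among the other late granule genes they were -2.17 for Wfdc21, -1.47 for Stfa1, -1.43 for Stfa3 and -1.06 for Lrg1. Stfa1 passed the filter only through Nlrp3-/- libraries. The receptor genes Fpr2 (-2.35) and Fpr1 (-2.16) and the regulators Gfi1 (-1.35) and Cebpe (-1.20) completed the group. Serpinb1a, Prss57 and Lrg1 appear here because their terms passed the criteria.

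Stimulation raised Hp, Fpr1, Fpr2 and Lcn2 in both genotypes, Wfdc21 and Stfa3 in wild-type cells by the call, and lowered Mpo, Elane, Prtn3, Ctsg and Fcnb in both.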

How the results depend on the processing

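Of the counts that answer a comparison, 213 alternative values stayed within 1.5 times the count given and 5 moved, all without the fold limit. There, the other listed genes called were 43 between genotypes in control (23 with the limit), 34 between genotypes with LPS+ATP (9), 46 for stimulation in wild-type cells (30) and 38 for the interaction (13), and 8 of the 10 genes passed for the interaction (5). Leaving out each library in turn gave 10 to 10 of the 10 genes between genotypes in control, 6 to 8 with LPS+ATP, 8 to 8 and 9 to 9 for stimulation in wild-type and Nlrp3-/- cells and 5 to 6 for the interaction, and of the other listed genes 21 to 23, 8 to 9, 30 to 31, 36 to 38 and 12 to 13. The interaction term of S100a9 (-0.03) ran from -0.09 to 0.04 when single libraries were left out, turning positive (0.04) without wild-type control replicate 1 or wild-type LPS+ATP replicate 2, never past the criteria. Without wild-type LPS+ATP replicate 1 or 3, or Nlrp3-/- LPS+ATP replicate 3, 1 other primary gene was called between stimulated genotypes in place of 2. Elane passed between stimulated genotypes without wild-type LPS+ATP replicate 3 (1.07), without Nlrp3-/- LPS+ATP replicate 1 (1.06) or replicate 2 (1.00), and Ltf without Nlrp3-/- LPS+ATP replicate 1 (1.02). The interaction of Ltf (-0.98) passed without wild-type control replicate 2 (-1.01), wild-type LPS+ATP replicate 1 (-1.03) or Nlrp3-/- LPS+ATP replicate 3 (-1.07). Camp was under the limit between stimulated genotypes with median-ratio scaling. With TPM, 1060 of all genes were higher and 115 lower between stimulated genotypes, against 565 and 72, and with a pseudocount of 0.1, 1266 and 140. Median-ratio scaling moved the median of all genes by 0.25 and 0.23 for stimulation in wild-type and Nlrp3-/- cells and by -0.12 and -0.15 for genotype in control and with LPS+ATP. Calls for stimulation were then 1399 higher and 876 lower in wild-type cells (1041 and 1411 without it) and 1093 and 604 in Nlrp3-/- cells (838 and 1036). Over 18 pairs of libraries with the same replicate number, the correlation of deviations was -0.057 to 0.053, so the numbers do not pair the samples. With a replicate block, 10, 6, 8, 9 and 5 of the 10 genes were called in the same order of comparisons, and 761 genes were higher in Nlrp3-/- controls. Low FPKM limits the stimulated values of Mpo, Elane, Prtn3 and Ctsg.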
